A study of Homo sapiens with 2 samples.

Results

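Cytokines, regulators of the transcription factor NF-kB and interferon-linked genes were followed in HT-29 cells after knockdown of GPR126. The 10 genes were IL8, CXCL3, IL10, IL20RB, NFKB1, BIRC3, RBCK1, SOCS3, IRF7 and IFI6, out of 2007 genes in the authors' deposited table. They were chosen by symbol, with earlier results of these data known. The table was itself selected on the difference between the libraries, so each ratio is given as a description with no test. HT-29 is an established epithelial line from a human colon adenocarcinoma. RNA sequencing compared 1 library of cells carrying a scramble control with 1 library of cells with GPR126 knocked down by RNA interference through a short hairpin RNA; the labels name no other allele or agent in either. The labels give no number of hairpins or clones, no time after knockdown and no cytokine treatment. GPR126 (current symbol ADGRG6) belongs to the adhesion family of G protein-coupled receptors. It had 68 reads in the scramble library and only 2 in the one labelled as the knockdown, 35.5-fold fewer for the size of the library (9.46 to 299).

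Chemokines and other cytokines are secreted signals that recruit or instruct immune and epithelial cells through surface receptors. Many of their genes are switched on by NF-kB, a family of dimeric transcription factors held inactive until receptor complexes, built with ubiquitin chains, activate the kinases that free them. Cytokine receptors of the JAK-STAT type are restrained by SOCS proteins, and interferons act through the same kinases to induce antiviral genes. In the gut epithelium these pathways connect sensing of microbes with recruitment of neutrophils.

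Library totals were 5753320 reads for the scramble control and 6010192 for the knockdown. Levels are reads per 1000000 (RPM) without a gene length, so they compare libraries for a gene and not genes with each other. Every interval is a 95% interval for counting error only, and with 1 library per group no difference has a replicate check. In bulk RNA, fewer cells of a type and less RNA per cell cannot be told apart. None of 10 colon epithelial markers, 14 leukocyte markers or 5 endothelial markers was listed, so the labelled cell type could not be checked from the selected table. Of 8 fibroblast markers COL1A1 was listed, with 83 scramble and 227 knockdown reads, and its part in the results was not tested.

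Promoter sequence is shown for the genes in which a motif tied to NF-kB or interferon signalling was found, so that the letters shared by IL8 and CXCL3, which differed alike, can be read beside NFKB1, which did not. RefSeq windows on GRCh38.p14, from 250 bases before to 50 bases after an annotated start, were matched for 9 of the 10 genes; IRF7 had none. Both strands were searched. The kappaB motif GGAANTTCC, which reads alike on both strands, was present in IL8, CXCL3 and NFKB1, and in 0.965% of all 35116 windows. All 3 genes carried the same letters, GGAATTTCC, between 91 and 83 bases before the start in IL8, 78 and 70 in CXCL3, and 48 and 40 in NFKB1. NFKB1 has 2 windows, and the match was in 1 of them. The matched genes had 1 to 3 windows each, whereas the percentages count single windows. IL8 also held an AP-1 motif, TGANTCA, from 137 to 131 bases before the start; 7.71% of windows hold one. In the stretches below, each from 170 to 31 bases before the start, capitals mark these motifs. IL8 lies on the plus strand at chr4:73740399-73740538, CXCL3 on the minus strand at chr4:74038720-74038859 and NFKB1 on the plus strand at chr4:102501189-102501328.
IL8: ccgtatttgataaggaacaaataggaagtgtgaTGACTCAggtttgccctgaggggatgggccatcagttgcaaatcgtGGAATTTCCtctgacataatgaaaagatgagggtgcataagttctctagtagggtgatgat
CXCL3: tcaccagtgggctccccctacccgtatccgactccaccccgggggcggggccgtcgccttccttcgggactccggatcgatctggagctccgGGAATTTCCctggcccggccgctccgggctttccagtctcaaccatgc
NFKB1: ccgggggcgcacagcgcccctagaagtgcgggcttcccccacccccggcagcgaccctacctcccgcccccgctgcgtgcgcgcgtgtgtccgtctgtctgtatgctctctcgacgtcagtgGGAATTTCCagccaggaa

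The longer degenerate NF-kB consensus was found in BIRC3, CXCL3 and NFKB1 and in 5.91% of all windows; in CXCL3 and NFKB1 it overlaps the shorter motif. The interferon-stimulated response element, searched as GAAA, any 2 bases and GAAA again, was found in IFI6 and RBCK1 and in 3.57% of windows. IFI6 held 3 copies, beginning 156, 115 and 93 bases before the start, whereas the copy in RBCK1 lay just after its start and is not shown. BIRC3 is printed from 210 to 71 bases before its start (plus strand, chr11:102317274-102317413) with both NF-kB consensus matches in capitals, and IFI6 from 170 to 31 bases before its start (minus strand, chr1:27672223-27672362) with the 3 response elements in capitals.
BIRC3: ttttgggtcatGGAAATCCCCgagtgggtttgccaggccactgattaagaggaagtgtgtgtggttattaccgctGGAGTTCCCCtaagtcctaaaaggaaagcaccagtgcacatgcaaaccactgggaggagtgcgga
IFI6: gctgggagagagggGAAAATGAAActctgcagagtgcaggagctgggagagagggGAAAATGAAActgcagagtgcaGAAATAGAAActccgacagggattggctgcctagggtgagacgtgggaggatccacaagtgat

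The search covered 8 motifs in all. TGATGCAA, known from amino acid response promoters, was found in IL20RB and in 0.866% of windows, and AP-1 also in 1 of the 3 windows of IL10. The STAT motif TTCNNNGAA, the cAMP response element TGACGTCA and the C/EBP motif TTNCGCAA had no match in the 9 genes, against 7.66%, 1.85% and 0.891% of all windows. Each was searched in this spelling only, so other forms of these sites may be present, also in the stretches shown. With shares this low among all windows, nothing is read from the lack of a match. The motif matches describe letters in a window and not occupied sites. The genes were chosen for their links to cytokines, NF-kB and interferon, so the shares of all windows beside them are no test of enrichment. The genes with GGAATTTCC did not share a direction: IL8 and CXCL3 were higher in the knockdown library and NFKB1 was lower.

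Of the 10 genes, 7 were higher by at least 2-fold in the knockdown library and 3 were lower by at least 2-fold. Among all 2007 listed genes these shares were 33.2% and 66.7%, and because listing itself required a 2-fold difference, nothing is read from these counts about the genes. At least 4-fold differences were seen in 5 higher genes and 1 lower gene, beside 8.67% and 8.57% of all listed genes. The median log2 ratio of the 10 genes was 1.83, and that of all listed genes was -1.16. Because the 10 genes were chosen with earlier results of these data known, neither the 4-fold counts nor the medians are evidence about the group. For 4 higher genes, IL20RB, RBCK1, IRF7 and IL8, and for 1 lower gene, IL10, the counting interval of the ratio did not reach 2-fold or less. The share of all listed genes with such an interval was not computed, so this count has no background to be read against. The intervals of the levels in both libraries did not overlap for any of the 10 genes, which the selection of the table favours. How many of all listed genes share this was not computed either, and nothing is read from it about the 10 genes.

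**Figure D1:**
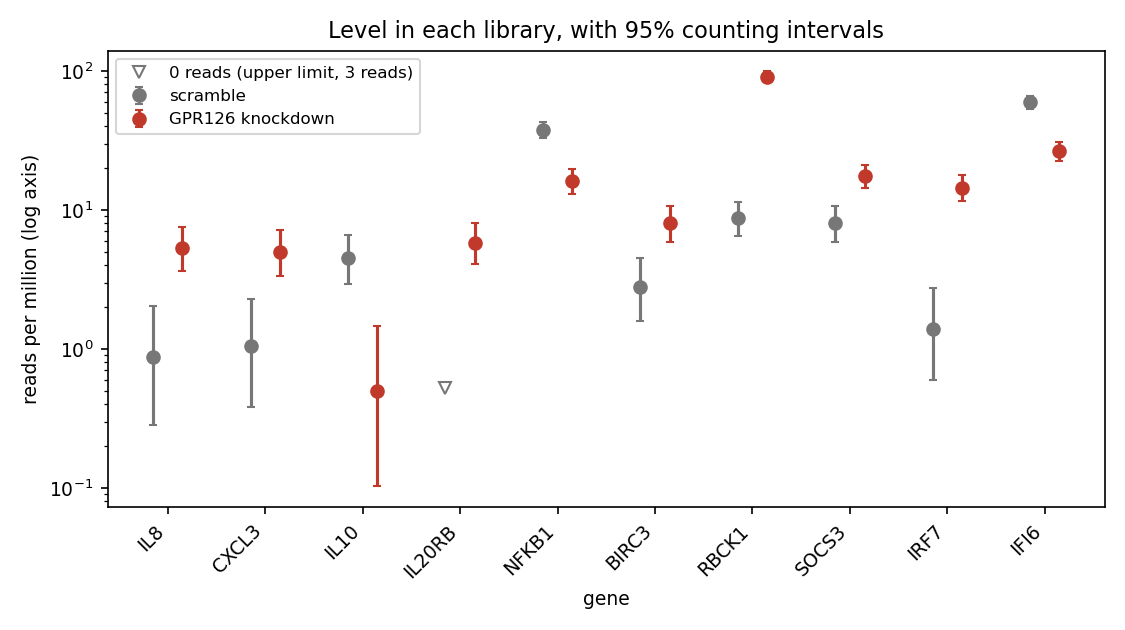
Level of each of the 10 genes in the scramble library (grey) and the GPR126 knockdown library (red), in RPM on a log axis; bars are exact 95% Poisson intervals and the open triangle is the floor of 3 reads used for the 0 reads of IL20RB, 0.521 RPM, where the exact Poisson upper limit is 0.641 RPM. The knockdown point lies above the scramble point for 7 genes and below it for IL10, NFKB1 and IFI6.

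Both listed CXC chemokine ligands were higher in the knockdown library, from few reads. IL8 (now CXCL8, Entrez 3576), the main attractant of neutrophils through the receptors CXCR1 and CXCR2, had 5 scramble reads, or 0.869 RPM (0.282 to 2.03), and 32 knockdown reads, or 5.32 RPM (3.64 to 7.52). CXCL3 (Entrez 2921), which acts on CXCR2, had 6 scramble reads, or 1.04 RPM (0.383 to 2.27), and 30 knockdown reads, or 4.99 RPM (3.37 to 7.13). The fold was 6.13 (2.37 to 20.1) for IL8 and 4.79 (1.96 to 14.1) for CXCL3, and these intervals overlap over most of their length.

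IL8 and CXCL3 lie in the same chemokine cluster on chromosome 4. In the RefSeq gene order, 9 protein-coding genes run from CXCL8 to CXCL2, and these 2 were the listed ones. CXCL6, PF4V1, CXCL1, PF4, PPBP, CXCL5 and CXCL2 were not listed. A gene that is not listed may be unchanged, changed by less than 2-fold or too weakly expressed to have been called. CXCL1 and CXCL2 are close in sequence to CXCL3, and no label says how reads that fit several genes were assigned, so the CXCL3 count is uncertain to that extent. The third listed gene of the 22 chemokines, CX3CL1, a membrane-anchored chemokine that attracts lymphocytes and monocytes, had 31 reads in the scramble and 8 in the knockdown library, 4.05-fold lower (1.82 to 10.2). The deposited annotations give chemokine activity to 1 further listed gene, CKLF, with 274 and 119 reads (2.41-fold lower, 1.93 to 3.01), so that 2 of the 4 genes with the term were higher and 2 lower.

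IL10 went the other way. IL10 (Entrez 3586), an anti-inflammatory cytokine made mostly by leukocytes that signals through STAT3, had 26 scramble reads, or 4.52 RPM (2.95 to 6.62), and 3 knockdown reads, or 0.499 RPM (0.103 to 1.46). It was 9.05-fold lower (2.77 to 46.7), and the width of the interval follows from the 3 remaining reads. The gene overlaps IL19 in the RefSeq annotation, and neither IL19 nor the neighbouring cytokine genes IL20 and IL24 was listed. No label says whether the counting used strand, so reads from IL10 and an overlapping transcript cannot be told apart.

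Among the other cytokines 3 more were listed and all 3 were higher. TSLP, an epithelial cytokine that acts on dendritic cells, had 2 and 32 reads (15.3-fold higher, 3.91 to 131.9). IL32, a proinflammatory cytokine, had 6 and 31 reads (4.95-fold higher, 2.03 to 14.5), nearly the counts of CXCL3. LIF, a ligand of the gp130 receptor family, had 412 and 880 reads and was 2.04-fold higher (1.82 to 2.30). The remaining 38 of 42 genes in that list were not listed. IL10 was therefore the only lower gene among the 4 listed cytokines other than chemokines, beside 66.7% lower among all listed genes.

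IL20RB was read in the knockdown library alone. IL20RB (Entrez 53833) encodes the receptor chain shared by the complexes for IL19, IL20 and IL24, in which it pairs with IL20RA or IL22RA1. It had 0 reads in the scramble library, which allows up to 0.521 RPM on a floor of 3 reads per library, and 35 knockdown reads, or 5.82 RPM (4.06 to 8.10). The knockdown level was 11.2-fold higher than that floor, and with the counting error of the 35 reads included the exact interval of the ratio starts at 8.61-fold. The ratio in the authors' deposited table, 9.18 on the log2 scale, rests on the 0.01 RPM that the authors entered for a count of 0. RefSeq places the antisense transcript IL20RB-AS1 over the gene, and it was not listed.

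The partner chain IL22RA1 was lower, with 47 scramble and 12 knockdown reads (4.09-fold, 2.14 to 8.47), while IL20RA was not listed. Of 50 cytokine receptors 9 were listed, 3 higher and 6 lower. Among all listed genes 33.2% were at least 2-fold higher and 66.7% lower, so the split is not particular to the receptors. IL17RC, a chain of the IL17 receptor, had 14 and 55 reads (3.76-fold higher, 2.06 to 7.32), and the death receptor TNFRSF10B had 1138 and 3818 reads (3.21-fold higher, 3.01 to 3.43). The 6 lower receptors lay between 2.25-fold and 4.09-fold, among them IL27RA with 300 and 91 reads (3.44-fold lower, 2.72 to 4.40), IL17RB with 96 and 34 reads, IL4R with 65 and 28 reads, and IFNGR2, the signalling chain of the interferon gamma receptor, with 173 and 80 reads.

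**Figure D2:**
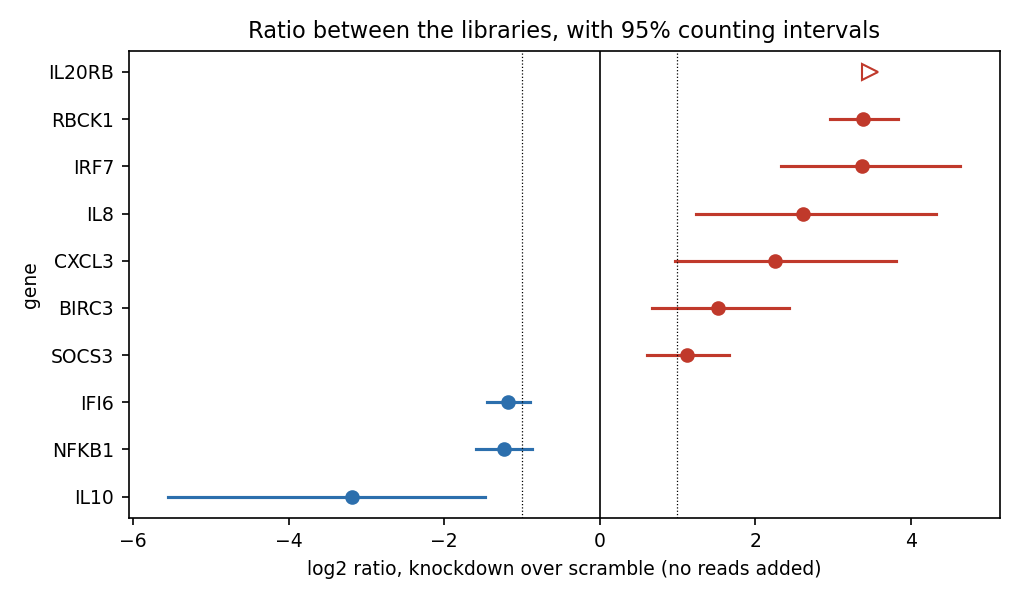
Log2 ratio of knockdown over scramble for the 10 genes, in order, with exact 95% counting intervals (lines) and dotted marks at 2-fold; the open triangle for IL20RB is its ratio to a floor of 3 scramble reads, with an interval that starts at 8.61-fold and has no upper end. The intervals of RBCK1, IRF7, IL8 and IL10 lie wholly beyond 2-fold, whereas those of CXCL3, BIRC3, SOCS3, IFI6 and NFKB1 reach inside it.

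The 3 NF-kB regulators differed in direction. NFKB1 (Entrez 4790), which encodes the precursor of the p50 subunit, had 217 scramble reads, or 37.7 RPM (32.9 to 43.1), and 97 knockdown reads, or 16.1 RPM (13.1 to 19.7). It was 2.34-fold lower (1.83 to 3.0007) with scaling to the library totals. With the median of the listed ratios, -1.16, set to 0, its log2 ratio was -0.061. That median comes from a table cut at 2-fold in which 66.7% of genes were lower, so it brings any gene just past the lower limit close to 0. It therefore cannot decide whether NFKB1 was lower. No other NF-kB subunit and no IkB inhibitor of the list was listed, so the subunits cannot be compared with each other. RefSeq places the antisense transcript NFKB1-AS1 over the gene.

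RBCK1 and BIRC3 were both higher. RBCK1 (Entrez 10616), a subunit of the complex that assembles linear ubiquitin chains on receptor complexes upstream of NF-kB, had 50 scramble reads, or 8.69 RPM (6.45 to 11.5), and 547 knockdown reads, or 91.0 RPM (83.5 to 99.0). The ratio was 10.5 (7.83 to 14.3), with the narrowest relative interval among the 7 higher genes. Its partners in the complex, RNF31 and SHARPIN, were not listed. BIRC3 (Entrez 330), a ubiquitin ligase of tumour necrosis factor receptor complexes and a known NF-kB target, had 16 reads, or 2.78 RPM (1.59 to 4.52), and 48 reads, or 7.99 RPM (5.89 to 10.6). Its ratio was 2.87 (1.60 to 5.42), and the interval of RBCK1 lies wholly above that of BIRC3.

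Of 64 genes of the NF-kB pathway 7 were listed, 4 higher and 3 lower, beside 33.2% and 66.7% of all listed genes. Besides the members, PELI2, a ubiquitin ligase that acts with IRAK kinases, had 12 and 77 reads (6.14-fold higher, 3.32 to 12.4), and TAB2, an adaptor of the kinase TAK1, had 175 and 407 reads (2.23-fold higher, 1.86 to 2.67). IKBKE, an IkB kinase-related enzyme of the interferon response, had 29 and 7 reads (4.33-fold lower, 1.86 to 11.7), and the bacterial sensor NOD2 had 44 and 17 reads (2.70-fold lower, 1.51 to 5.05).

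All 6 listed genes of 32 NF-kB-linked targets were at least 2-fold higher, beside 33.2% of all listed genes, and their median log2 ratio was 1.72. That list was written with earlier results for some of its genes known, and several of them are also targets of other factors, so its count is not independent evidence of a direction. The count also depends on which genes were placed in the list. IL8, CXCL3 and NFKB1, which carry the kappaB motif, were placed in other lists. Of these, IL8 and CXCL3 were higher and NFKB1 was lower. The laminin chain LAMB3 had 134 and 871 reads (6.22-fold, 5.18 to 7.52), and the epithelial transcription factor ELF3 had 81 and 516 reads. PLAU, the urokinase gene, was 3.88-fold higher (2.73 to 5.63), and BCL2L1 and KLF6 were both 2.28-fold higher. BIRC3 is the member in this list, and the other 26 genes, including NFKBIA, TNFAIP3 and ICAM1, were not listed.

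SOCS3 (Entrez 9021), a feedback inhibitor of JAK kinases at gp130-type receptors and itself a STAT3 target, had 46 scramble reads, or 7.995 RPM (5.85 to 10.7), and 105 knockdown reads, or 17.5 RPM (14.3 to 21.1). The ratio was 2.19 (1.53 to 3.16), the smallest of the 7 higher genes. In the RefSeq annotation the noncoding transcript SOCS3-DT overlaps the gene, and it was not listed. Of 30 JAK-STAT genes 6 were listed, 4 higher and 2 lower, beside 33.2% and 66.7% of all listed genes. JAK3 was 3.03-fold higher with 18 and 57 reads, the kinase gene PIM1 2.76-fold higher with 41 and 118 reads, and the repressor BCL6 2.41-fold higher with 35 and 88 reads. STAT6, the factor used by IL4R, was 2.64-fold lower (1.76 to 4.05) with 86 and 34 reads, and PIAS2, an inhibitor of STAT factors, was 2.18-fold lower with 69 and 33 reads.

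The interferon-linked pair was divided. IRF7 (Entrez 3665), the transcription factor that amplifies type I interferon induction and is itself induced by interferon, had 8 scramble reads, or 1.39 RPM (0.6003 to 2.74), and 87 knockdown reads, or 14.5 RPM (11.6 to 17.9). The ratio was 10.4 (5.06 to 24.9), close to that of RBCK1 with a wider interval. IFI6 (Entrez 2537), an interferon-induced membrane protein with antiviral and survival roles, had 343 scramble reads, or 59.6 RPM (53.5 to 66.3), and 159 knockdown reads, or 26.5 RPM (22.5 to 30.9). It was 2.25-fold lower (1.86 to 2.74), and under the median scaling its log2 ratio was -0.010. As for NFKB1, that scaling cannot decide whether IFI6 was lower.

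Of 85 interferon regulatory and interferon-stimulated genes 7 were listed, 4 higher and 3 lower, beside 33.2% and 66.7% of all listed genes. LGALS3BP had 366 and 1102 reads (2.88-fold higher, 2.56 to 3.25), IRF2BP1, a corepressor bound to IRF2, was 2.15-fold higher (1.68 to 2.78), and XAF1, an interferon-inducible antagonist of XIAP, had 0 and 14 reads, 4.47-fold above a floor of 3 reads, with an interval that starts at 3.18-fold. B2M, the light chain of class I histocompatibility molecules, had 2788 and 991 reads (2.94-fold lower, 2.73 to 3.16), and CMPK2, an interferon-induced nucleotide kinase, had 13 and 0 reads, 4.53-fold lower at the same floor, with an interval that also starts at 3.18-fold. The classical interferon-stimulated genes ISG15, MX1, IFIT1 and OAS1 were not listed.

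**Figure D3:**
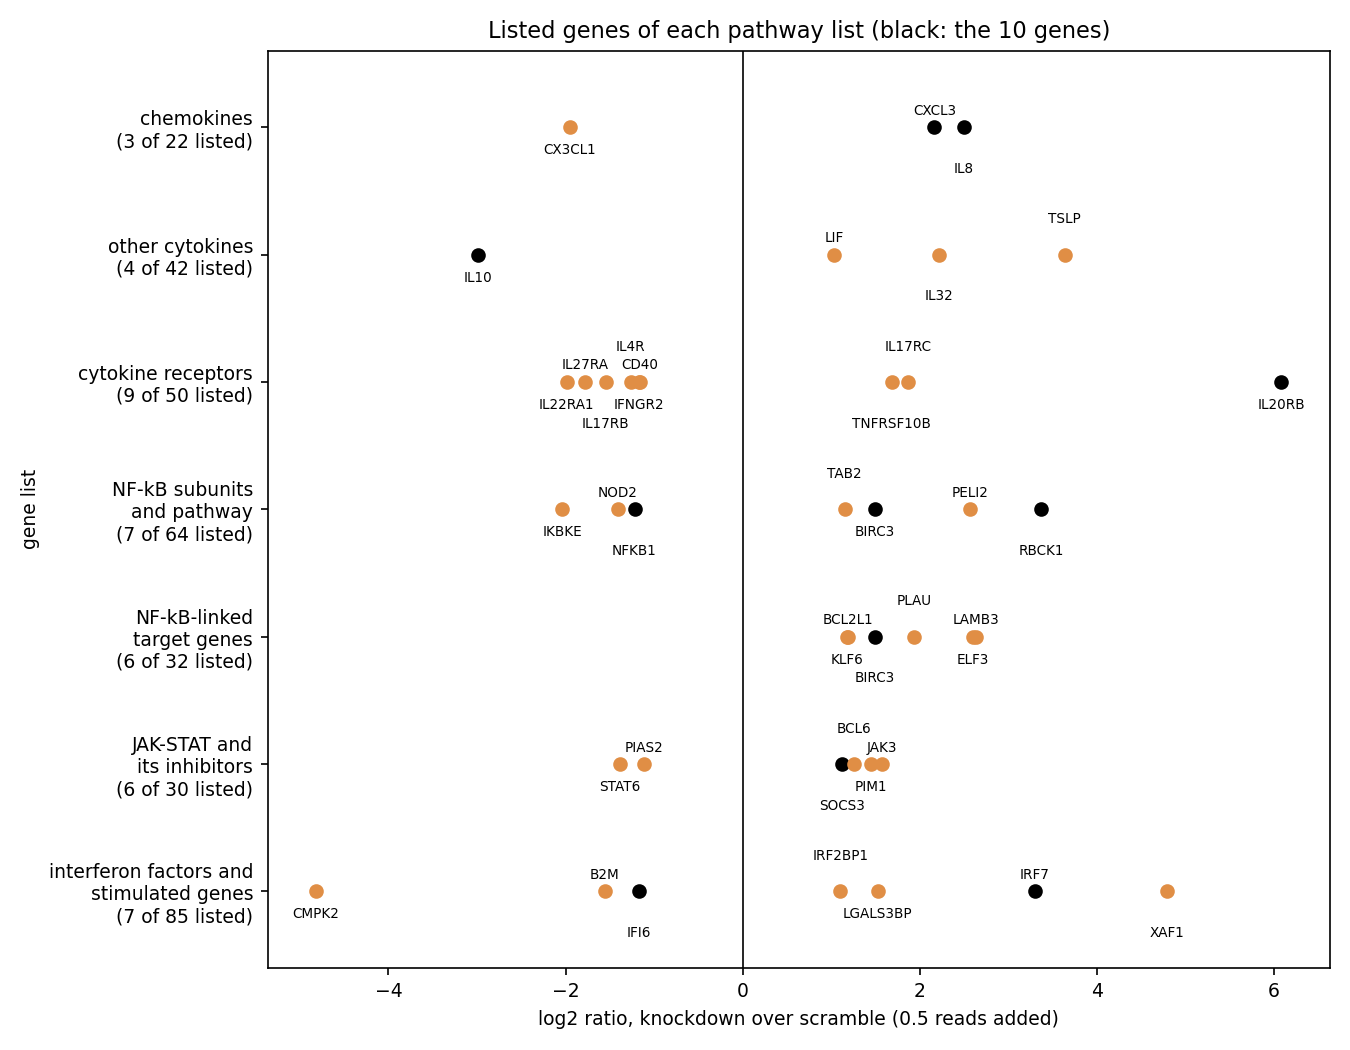
Log2 ratio of knockdown over scramble (0.5 reads added to each count) for every listed gene of 7 pathway lists, with the 10 genes in black and other genes in orange. The NF-kB-linked targets lie on the higher side alone, and every other list holds genes on both sides of 0.

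Together the 7 lists held 322 genes, of which 41 were listed, 25 higher and 16 lower, with a median log2 ratio of 1.18. Without the 10 members 31 were listed, 18 higher and 13 lower, with a median of 1.15. Among all listed genes 33.2% were at least 2-fold higher and the median was -1.16. The 25 higher genes were 2-fold higher under each scaling tried, while the 16 that were 2-fold lower fell to 2 with the median scaling and 6 with the upper quartile of the listed genes. Both of these scalings raise every ratio, so higher genes had to stay and lower ones could only become fewer. This therefore does not show that the higher genes are the more reliable ones. The lists were written with results of these data known, so these counts describe the genes and are not a test of the pathway.

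**Figure D4:**
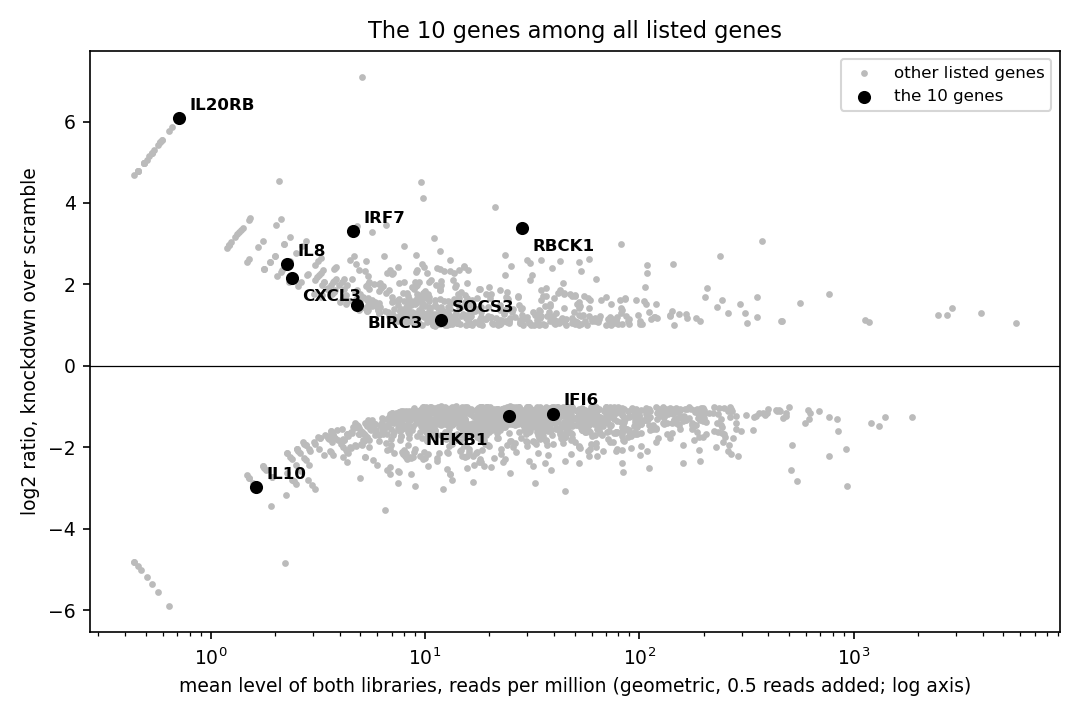
Log2 ratio of knockdown over scramble (0.5 reads added) against the mean level of both libraries, in RPM on a log axis, for all 2007 listed genes, with the 10 genes in black. The empty band around 0 is the 2-fold limit of the table; NFKB1, IFI6 and SOCS3 lie near it, and the diagonal row that ends in IL20RB holds genes with 0 scramble reads.

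Ordered by log2 ratio, the 10 genes ran IL20RB, RBCK1, IRF7, IL8, CXCL3, BIRC3, SOCS3, IFI6, NFKB1 and IL10. Each neighbouring pair had overlapping intervals except SOCS3 and IFI6, which lie on either side of equality. The order among the higher genes is therefore not resolved step by step, although the ends are apart, since the interval of RBCK1 starts at 7.83 and that of SOCS3 ends at 3.16. Closest to the limits of the table were SOCS3, with a log2 ratio of 1.13 in the authors' deposited table, and IFI6, with -1.17. BIRC3 had the largest FDR of the 10, 0.000371 in the authors' deposited table, where the largest of all listed genes was 0.000999. Values of genes just outside these limits were not analysed here.

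The FDR values in the authors' deposited table do not order the genes as the ratios do. IRF7, with 8 and 87 reads, had 1.92e-05, while SOCS3, with 46 and 105 reads and a ratio of 2.19, had 2.02e-05. IFI6, 2.25-fold lower, had 2.17e-17, and RBCK1, 10.5-fold higher with 547 knockdown reads, had 4.53e-13. No source used here names the authors' test, and none of these values is used to rank the genes.

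The annotations in the deposited table group the 10 genes differently from their names. The process term anti-apoptosis was carried by 5 of them, IL10, NFKB1, BIRC3, SOCS3 and IFI6. Of all 21 listed genes with that term 7 were higher and 14 lower, and of the 5 members BIRC3 and SOCS3 were the higher ones. Immune response was carried by IL8, CXCL3, IL10 and IFI6, and by 27 listed genes, 12 higher and 15 lower. Inflammatory response was carried by IL8, CXCL3 and NFKB1, and by 16 listed genes, 10 higher and 6 lower. IL8 and CXCL3 also shared chemotaxis, with 6 listed genes higher and 4 lower, and neutrophil chemotaxis, with 3 higher and 1 lower. RBCK1 and SOCS3 shared modification-dependent protein catabolism, a term of 40 listed genes of which 30 were lower. These counts stand beside 66.7% lower among all listed genes, and none was tested.

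Genes beside the members on the chromosome were mostly not listed. The share of all protein-coding genes that were listed was not computed, so nothing is read from this. Of the 8 nearest protein-coding genes, 4 on each side in the RefSeq order of GRCh38.p14, none was listed for IL8, CXCL3, IL10 or BIRC3. IRF7 was higher while its neighbours PHRF1, with 101 and 39 reads, and RASSF7, with 148 and 76 reads, were lower. NFKB1 was lower along with SLC39A8, with 107 and 34 reads, and CISD2, with 280 and 132 reads. RBCK1 was higher along with CSNK2A1, with 511 and 1355 reads, and SOX12, with 296 and 801 reads, while TRIB3, next to RBCK1, was not listed. IL20RB was higher while CLDN18, with 35 and 7 reads, was lower, and IFI6 was lower along with PPP1R8, with 370 and 117 reads. SOCS3 had 3 listed neighbours, CYTH1 and USP36 higher and BIRC5 lower. These directions stand beside 33.2% at least 2-fold higher and 66.7% lower among all listed genes, and none was tested.

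The listed genes most like each member were taken as the 2 with the nearest log2 ratio among genes of similar summed count, a likeness over 2 libraries only. IL8 had the same counts as BEST1, 5 and 32 reads. CXCL3 lay nearest to AFAP1L2, with 5 and 26 reads, and to IL32. IRF7 lay nearest to the stress transcription factor ATF3, with 10 and 106 reads, and to the autophagy kinase ULK1, with 8 and 95 reads. IL20RB lay nearest to KRT86, with 0 and 30 reads, and NEURL, with 0 and 28 reads. IL10 lay nearest to ZNF107, with 24 and 3 reads, and MAPK8IP1, with 22 and 3 reads. RBCK1 had no close match: the nearest, UPP1, with 31 and 495 reads, differed by 0.54 on the log2 scale. For NFKB1, BIRC3, SOCS3 and IFI6, whose ratios fall where listed genes are dense, both nearest genes lay at most 0.018 away on that scale.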

How the data were processed

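RNA was taken from HT-29 cells, per the labels' protocols, in 1 scramble and 1 GPR126 knockdown library. Whole-number counts per gene were deposited, per the file headers. A further deposited column, headed TPM, is an RPM value: it equals the count divided by 1 library total per 1000000 within 0.005 for 100% of counts above 0, with 0.01 entered for a count of 0. The log2 ratio, p-value and FDR were deposited by the authors. Aligner, counter, build and annotation: not given in the sources used here. Only called genes were supplied: the table's smallest absolute log2 ratio is 1 and the largest FDR 0.000999.

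Ratios were computed from the counts, scaled to the library totals that the RPM values imply, with 0.5 reads added for log2 ratios and none for folds. Fold intervals are exact Clopper-Pearson 95% intervals given the summed count, and level intervals are exact Poisson. A count of 0 was set to 3 reads for the printed fold and for counts of genes past a fold. No gene fell under 1 RPM in both libraries. No test was run, since each group had 1 library. The interval code was tested on simulated data.

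The members and lists were chosen with earlier results of these data known. Identifiers were matched to RefSeq GRCh38.p14 names for 2004 of 2007 genes. Named genes were all members and, per list, up to 8 listed genes with the largest absolute log2 ratio; the neighbours on the chromosome, the genes given as not listed and GO terms (2 or more members, at most 60 listed genes) and promoter motifs, and CKLF, were chosen after the values were seen. Some genes of the lists are not reported here and were left out of their counts. Alternatives covered the pseudocount, scaling, floor, fold limit and unit. Computation used matplotlib 3.10.9, scipy 1.17.1, pandas 2.3.3 and numpy 2.4.6 under Python 3.11.15.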

Additional observations from a re-analysis of the deposited data

How the results depend on the processing

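No paired analysis was possible because there was 1 library per group, so none could be left out either. All 10 genes kept their direction under every pseudocount, scaling and unit tried, but the table is limited to 2-fold, so little could turn. Setting the median of the listed ratios to 0 removed a log2 shift of -1.16 and the upper quartile of the listed genes one of -0.71; both use only listed genes, which were mostly lower, and both raise every ratio. NFKB1 then reached -0.061 and -0.51, and IFI6 -0.010 and -0.46, in that order, so that 1 gene, IL10, stayed 2-fold lower, and 2 or 6 of the 16 lower pathway genes did. A 4-fold limit left 1 lower member (5 higher) and 11 higher and 5 lower pathway genes. A counting interval wholly beyond 2-fold left 4 higher members and 1 lower. With 5 reads added, IL20RB had a log2 ratio of 2.94, below its counting interval, against 6.09 with 0.5 reads and 9.39 with 0.05, since it has 0 scramble reads. Requiring 5 RPM kept 6 higher and 2 lower members and dropped CXCL3 and IL10. Removing the floor changed nothing, as every listed gene passed it. Depth limits IL8, CXCL3, IL10, IL20RB and IRF7, which had under 10 reads in 1 library.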
